A study of Mus musculus with 3 samples.

Results

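The comparison of Q111-ASOs with Q111-Control asks which transcripts differed when STHdhQ111/Q111 cells received morpholino antisense oligos (ASOs) against Rest exon 3. It was made for every row of the deposited table that carried exactly 1 gene symbol, with the row of highest mean signal over the 3 arrays kept for each gene, which gave 22180 genes from 41345 rows. STHdhQ111/Q111 is a striatal line of the strain C57BL6/J, from knock-in mice whose Htt exon 1 is humanized and encodes 111 glutamines. Q111-ASOs cells had the ASOs I2E3 and E3I3 at 3 µM each, directed at the splice acceptor and donor of Rest exon 3, and Q111-Control cells had a non-specific morpholino. Endo-Porter, a peptide that carries morpholinos into cells, was added at 6 µM in every condition, and RNA was taken after 48 h. The third array, Q7-Control, is of STHdhQ7/Q7 cells (7 glutamines, same strain) with the control oligo, and its value is printed beside named genes for reference. Q7-Control differences from Q111-Control share the Q111-Control array with the ASOs comparison. Each condition is 1 culture on 1 Affymetrix Mouse Gene 2.0 ST array, and each genotype is 1 line. No replicate error can be given, so values are log2 signals and their differences, with no p-value, and "rose" or "fell" is used only for a gene past a stated limit. The limits are 2-fold, 1.5-fold and a log2 difference of 0.32, a ratio of 5 to 4.

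REST is a zinc-finger repressor that holds neuronal genes down in non-neuronal and progenitor cells. It binds the RE-1 element and recruits the CoREST and Sin3 corepressors with histone deacetylases. Exon 3 of its transcript encodes a zinc finger needed for transport of the protein into the nucleus, which is why the study directed ASOs at the splice sites of that exon. In striatal cells with an expanded huntingtin, nuclear REST is known to be raised.

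Because the comparison turns on a DNA-binding repressor, promoters of the named genes were searched for the RE-1 element as the left part TTCAGCACC and the right part GGACAGCGC with 2 bases between, on both strands, with at most 5 mismatches over 18 positions. The sequences are RefSeq promoters of GRCm38.p6, which run from 250 bases before to 50 bases after a gene's start. The 63 genes that rose by over 1.5-fold at a mean signal of the Q111 arrays at or over the median, described further on, had 45 members with a promoter in the table. A match was found in 6 of the 45 (13.3%), against 4.78% of 16990 genes on the array with a promoter and 5.58% of the 8819 such genes whose signal reached the median. Stmn2, Vgf, Rundc3a and Gdap1l1 had no promoter in the table and were not searched. Syn1, Unc13a, Gnptg and Sarm1, all among the 6, were listed by the study from these same arrays. Unc13a and Sarm1, 2 of the 6, reached that signal only through the ASOs array, so these shares are a description. Among 141 genes that rose by over 0.32 and less than 1.5-fold at such signals, 8 had a match (5.67%), near the share of all genes there. With at most 4 mismatches it was 2 of the 45 (4.44%), against 0.712%. An exact left part stood in 2 of the 45, Syn1 and Unc13a, and an exact right part in 1, Unc13a, against 0.512% and 0.612% of genes on the array. Over all 27025 genes of the table the shares were 4.06% for the joined element, 0.433% for the left part and 0.477% for the right part. A part counted alone can also lie inside a joined match. A match describes letters, not a bound site, and elements outside this window were not searched. The paper states, from bioinformatics, that nearly every gene it found regulated holds an RE-1 element, without giving the window searched. The shares here are for a narrow window and are no measure of that statement.

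The promoters of 3 matched genes are shown because they hold the match nearest to the element (Syn1, chrX:20920869-20921168, minus strand, 2 mismatches), exact copies of both parts (Unc13a, chr8:71671708-71672007, minus strand, 5 mismatches) and the match of a gene between 1.5-fold and 2-fold (Camk2n2, chr16:20621229-20621528, minus strand, 4 mismatches). Each is written 5′ to 3′ on the gene's strand, and capitals mark the joined match. In Unc13a and Camk2n2 the match lies on the opposite strand. In Unc13a the exact right part (gcgctgTCC as printed) lies mostly outside the capitals. It is not the right part of the joined match, which holds all 5 mismatches.
Syn1: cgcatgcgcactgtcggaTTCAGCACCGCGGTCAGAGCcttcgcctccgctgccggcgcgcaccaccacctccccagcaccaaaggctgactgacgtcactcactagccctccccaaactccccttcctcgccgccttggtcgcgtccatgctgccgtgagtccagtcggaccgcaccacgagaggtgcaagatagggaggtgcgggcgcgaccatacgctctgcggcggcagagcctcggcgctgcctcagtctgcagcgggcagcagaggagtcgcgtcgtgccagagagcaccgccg
Unc13a: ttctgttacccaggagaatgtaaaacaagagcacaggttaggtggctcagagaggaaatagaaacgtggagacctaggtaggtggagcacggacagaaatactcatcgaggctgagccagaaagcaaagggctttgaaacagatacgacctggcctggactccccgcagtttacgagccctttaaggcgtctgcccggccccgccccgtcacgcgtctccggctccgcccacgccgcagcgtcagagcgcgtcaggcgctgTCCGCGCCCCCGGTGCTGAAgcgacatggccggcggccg
Camk2n2: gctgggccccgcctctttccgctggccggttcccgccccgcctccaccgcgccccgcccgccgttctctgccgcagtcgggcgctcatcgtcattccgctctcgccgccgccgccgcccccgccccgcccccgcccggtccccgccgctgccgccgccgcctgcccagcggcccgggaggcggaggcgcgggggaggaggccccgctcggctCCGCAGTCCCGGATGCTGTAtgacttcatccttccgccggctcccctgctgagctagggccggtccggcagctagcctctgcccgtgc

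The matched stretches themselves are set side by side below, each read in the direction of the element, with capitals for the letters equal to it and lower case for mismatches and the spacer. Syn1, Unc13a, Camk2n2, Gnptg, Sarm1 and Gfra1 are the 6 named genes with a match. Crip2 (chr12:113140081-113140100, plus strand, 3 mismatches) and Scamp5 (chr9:57468195-57468214, minus strand, 2 mismatches) are added as the closest matches among those 141 genes, chosen after their values were seen.
Syn1: TTCAGCACCgcGGtCAGaGC
Unc13a: TTCAGCACCggGGgCgcgGa
Camk2n2: TaCAGCAtCcgGGACtGCGg
Gnptg: cTCAcCACgcaGcgCAGCGC
Sarm1: TaCAGCAtCttGcACAcCaC
Gfra1: TaCAGCtCggaGGACAGaGt
Crip2: TTCAGCACCacaGACAGgaC
Scamp5: TTtAGCACCacGGACAGCtC

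Most genes with a close match did not rise by over 0.32, but many of them were dim. Of 31 genes on the array with at most 3 mismatches, 14 reached the median signal. Past 0.32, 3 rose (Syn1, Crip2 and Scamp5), all 3 among those 14, and none fell. Among all well-measured genes 2.43% rose and 0.577% fell by as much. Syn1 is on the study's list. The median log2 difference of the 31 was 0.00, but it rests largely on dim genes, many with equal values on both Q111 arrays. Lhx3, a LIM homeobox gene with 0 mismatches, was at a log2 signal of 5.79 throughout, and the glutamate receptor subunit gene Gria2, with 1 mismatch, was at 4.27 throughout. Both signals lie below the median of all genes, so a difference there may not be readable.

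The targeted gene, Rest, had 9.16 on both control arrays and 9.33 with ASOs, as log2 signals. The probes lie along the whole transcript, so this value is no measure of exon 3 skipping. Of 32 genes for REST and its corepressors, each of which reached the median signal, 0 passed 0.32 in either direction. Among all genes at such signals 2.43% rose and 0.577% fell by as much, so a count of 0 is near the background. Differences of the 32 ran from -0.15 (Hmg20b, a subunit of the CoREST complex) to 0.17 (Rest itself), with a median of 0.00. The line carries few neuronal transcripts under either oligo. Of 18 neuronal markers 3 (Map2, Rbfox3 and Stmn2) were at or above the median signal, and the synaptic gene Snap25, the neurofilament gene Nefl and the migrating-neuron gene Dcx were below it, at 5.67, 5.18 and 4.27 on both Q111 arrays. Striatal markers were as low, with 6 of 27 at or above the median. The dopamine receptor genes Drd1 and Drd2 had 4.04 and 5.02 on both arrays. Fibroblast and mural markers were better represented (9 of 12, with a median over the list of 9.36 under the control oligo and 9.71 with ASOs), and macrophage, endothelial, astrocyte and oligodendrocyte markers had 3 of 16, 2 of 12, 5 of 12 and 4 of 12. In none of these 5 lists did a marker pass 1.5-fold. Over all genes 0.455% rose and 0.153% fell by as much, so a count of 0 in lists of this size is near the background. Neural progenitor factors had 18 of 30 at or above the median, and 0 of them passed 1.5-fold. Of the neuronal markers, Stmn2 and the dim Tubb3 passed it, and Stmn2 was itself under the median in Q111-Control (6.36). In a bulk sample, more cells of a type and more RNA per cell cannot be told apart.

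The ASOs and control arrays were close to each other. Over genes the median log2 signal was 6.51 for the control oligo and 6.52 for ASOs, 49.4% of genes had exactly equal deposited values on both, and 96.8% lay within 0.32. Over all 22180 genes, 23 rose by over 2-fold with ASOs (0.104%) and 6 fell (0.0271%). Past 1.5-fold, 101 rose (0.455%) and 34 fell (0.153%). Among the 11090 genes whose mean of the Q111 arrays reached the median of 6.52, here called well measured, 23 rose by over 2-fold (0.207%) and 0 fell (0%). Past 1.5-fold, 66 of them rose (0.595%) and 10 fell (0.0902%), and past the log2 limit of 0.32, 270 rose (2.43%) and 64 fell (0.577%). Of the well-measured genes, 40.8% were higher with ASOs, 23.4% lower and 35.8% equal, with a mean difference of 0.03 and a median of 0.00.

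**Figure D1:**
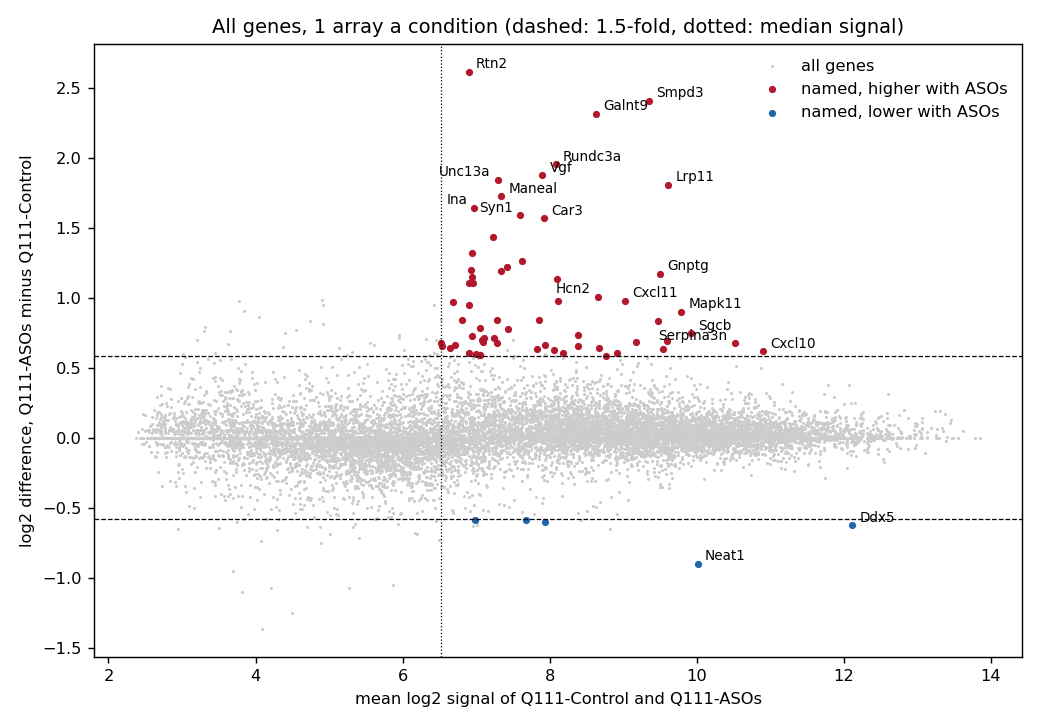
Each point is 1 gene, with the mean log2 signal of Q111-Control and Q111-ASOs on the x axis and the log2 difference of Q111-ASOs minus Q111-Control on the y axis, 1 array a condition. Dashed lines mark 1.5-fold and the dotted line the median signal (6.52). The 63 named genes in red reach 2.61 (Rtn2) and the 5 in blue reach -0.90 (Neat1).

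Named genes are those past 1.5-fold among the well measured, without predicted genes, small RNAs and receptor families. They were 63 that rose, 23 of them by over 2-fold and 40 by 1.5-fold to 2-fold, and 5 that fell, all by less than 2-fold. Among the 63, Q111-Control signals ran from 5.59 to 10.60 (median 6.95) and Q111-ASOs signals from 6.86 to 11.21 (median 8.21). For 17 of the 63 the Q111-Control signal was under 6.52, the median over all genes, so they counted as well measured only through the ASOs array, and their fold rests on a dim control value. The 16 genes with a value here of the 17 the study listed from these arrays all rose by over 2-fold, but they were chosen for that on the same arrays and are not independent evidence. Kcnk3, the 17th, shares its rows with another symbol and has no value here. In the paragraphs that follow, the named genes are grouped by known role, a grouping made after their values were seen.

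Synaptic vesicle and secretory genes made a group of 9. The largest rises were of Rundc3a, an effector protein of neurons and endocrine cells (7.11 in Q111-Control, 9.06 in Q111-ASOs and 10.33 in Q7-Control, 3.86-fold for ASOs/Ctrl), and Vgf, a secreted neuropeptide precursor (6.96, 8.84 and 9.64, 3.66-fold). Unc13a, which primes synaptic vesicles for release, went from 6.38 to 8.22, or 3.58-fold, with 9.15 in Q7-Control. Syn1, the vesicle phosphoprotein whose promoter holds the nearest match above, went from 6.80 to 8.39, or 3.01-fold. In all 4, Q7-Control was the highest of the 3 arrays, and 5 smaller rises stood beside them. Svop, a synaptic vesicle transporter-like protein, had 6.39 in Q111-Control and 7.23 in Q111-ASOs (1.79-fold, with 6.60 in Q7-Control). The active zone scaffold gene Bsn had 6.66 and 7.44 (1.72-fold, 7.06 in Q7-Control), and Rims2, its active zone partner, 7.61 and 8.27 (1.58-fold, 9.14 in Q7-Control). For Svop and Bsn a dimmer row did not rise: Svop was 6.39 and 6.19 there, and Bsn 6.08 on both arrays. Hid1, which acts in dense-core vesicle formation, had 7.51 and 8.15 (1.55-fold), and the endosomal sorting gene Nsg1 8.61 and 9.22 (1.52-fold). In the list of synaptic release genes, 4 of 25 well-measured genes passed 0.32 upwards (Unc13a, Syn1, Bsn and Rims2) and 0 downwards, with a median of 0.00, against 2.43% and 0.577% of all well-measured genes. The study had picked Unc13a and Syn1 on these same arrays, so they are not independent evidence. Unc13a also counted as well measured only through the ASOs array.

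Cytoskeletal and axonal genes made a group of 11, from 1.6-fold to 6.11-fold. Rtn2, a reticulon that shapes tubular endoplasmic reticulum, had the largest rise of all genes, from 5.59 to 8.21 (8.92 in Q7-Control). Its control signal was well below the median, so 6.11-fold rests on a dim array. Ina, a neuronal intermediate filament, went from 6.16 to 7.80 (3.12-fold), and the ganglioside-induced gene Gdap1l1 from 6.51 to 7.94 (2.70-fold). The stathmins Stmn3 and Stmn2, which destabilize microtubules, went from 6.74 to 7.93 (2.28-fold) and from 6.36 to 7.51 (2.22-fold). Nmnat2, which makes NAD in axons, went from 7.54 to 8.67 (2.19-fold) and Sarm1, the NAD-consuming enzyme that drives axon degeneration, from 6.35 to 7.46 (2.15-fold). Both members of this opposed pair therefore rose by similar folds, though the control signal of Sarm1 was under the median. Ina, Gdap1l1 and Stmn2 were also under it in Q111-Control and, like Sarm1 and Rtn2, counted as well measured only through the ASOs array. Below 2-fold, the adhesion molecule gene L1cam had 7.43 in Q111-Control, 8.27 in Q111-ASOs and 7.84 in Q7-Control (1.79-fold). The actin nucleator gene Spire2 had 9.06, 9.90 and 9.61 (1.78-fold), and the secreted olfactomedin gene Olfm1 8.01, 8.75 and 10.41 (1.66-fold). Gpm6b, a membrane proteolipid of neurons and glia, had 6.75, 7.43 and 9.53 (1.6-fold). L1cam and Spire2 were higher in Q111-ASOs than on either control array, whereas Olfm1 and Gpm6b stayed well below Q7-Control. So did Stmn2, with 11.13 in Q7-Control, Stmn3 (9.62) and Nmnat2 (10.20). Gdap1l1 had 8.53 in Q7-Control, above Q111-ASOs, while Ina (7.43) and Sarm1 (7.45) were not above it there.

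Channels, receptors and signalling genes made a group of 12, of which 4 rose by over 2-fold. Lrp11, a membrane protein of the LDL receptor-related family, went from 8.71 to 10.52 (3.49-fold), although its dimmer row had 5.70 and 5.92. Fbxl16, an F-box protein gene, went from 6.28 to 7.60 (2.50-fold), and the CaM kinase phosphatase gene Ppm1e from 6.99 to 8.25 (2.40-fold). The pacemaker channel gene Hcn2 had 8.16 in Q111-Control, 9.16 in Q111-ASOs and 8.76 in Q7-Control, just past 2-fold (2.005-fold). Of these 4, only Fbxl16 was under the median signal in Q111-Control. Camk2n2, an inhibitor of CaM kinase II and a gene whose promoter is printed above, had 7.63, 8.61 and 8.72 (1.97-fold). Disp2, a dispatched-family membrane protein, had 6.20, 7.17 and 7.44 (1.96-fold), and the rhomboid protease-like gene Rhbdl3 7.04, 7.82 and 8.32 (1.71-fold). The acid-sensing channel gene Asic1 had 6.75, 7.46 and 8.14 (1.64-fold) and Tmem74 6.89, 7.60 and 8.20 (1.63-fold). For each of these 5 the ASOs array lay between the control arrays. In a further 3 genes Q7-Control had the lowest signal. The sortilin-related receptor gene Sorcs1 had 6.19 in Q111-Control, 6.86 in Q111-ASOs and 4.86 in Q7-Control (1.6-fold). The N-type calcium channel gene Cacna1b had 7.88, 8.48 and 6.63 (1.52-fold), and the GDNF receptor gene Gfra1 8.48, 9.06 and 7.97 (1.5-fold). Gfra1 is the last gene inside the 1.5-fold rule, and its dimmer row had 4.64 and 4.73.

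Enzymes of lipids and glycans were among the largest rises. Smpd3, a neutral sphingomyelinase that makes ceramide, went from 8.15 in Q111-Control to 10.55 in Q111-ASOs (5.30-fold), above its 8.56 in Q7-Control. Galnt9, which starts mucin-type O-glycans, went from 7.48 to 9.79 (4.96-fold) with 6.20 in Q7-Control. Maneal, an endomannosidase-like gene, went from 6.48 to 8.20 (3.30-fold) with 6.87 in Q7-Control, and the cytosolic carbonic anhydrase gene Car3 from 7.14 to 8.71 (2.96-fold) with 4.86. In these 4 genes Q111-ASOs was the highest of the 3 arrays. For Car3 a dimmer row also rose, from 4.61 to 5.71. Gnptg, a subunit of the enzyme that tags lysosomal hydrolases, went from 8.91 to 10.08 (2.25-fold), equal to its Q7-Control value. Paqr4, a progestin and adipoQ receptor family gene, had 8.83 and 9.52 (1.61-fold), and the mitochondrial porphyrin transporter gene Abcb6 7.75 and 8.37 (1.54-fold). Related genes moved less. Of 29 well-measured genes for glycan synthesis and carbonic anhydrases, 5 passed 0.32 upwards and 0 downwards (2.43% and 0.577% of all well-measured genes), with a median of 0.05. Of the 5, Maneal and Galnt13 (6.42 in Q111-Control) counted as well measured only through the ASOs array. The list covers the families of Galnt9, Maneal and Car3 and was made with earlier results known. Its count is therefore a description and not independent evidence. Of 27 sphingolipid genes 1, Smpd3, passed it, and the next was the sphingomyelin synthase gene Sgms2 at a difference of 0.23.

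Immune and inflammatory genes made a group of 10 that rose by 1.51-fold to 2.29-fold. H2-T23, a non-classical MHC class I gene with close relatives that probes may share, had 6.33 in Q111-Control and 7.53 in Q111-ASOs (2.29-fold). Tnfsf11, the cytokine RANKL, had 6.41 and 7.51 (2.15-fold, with 5.77 in Q7-Control). The interferon-induced chemokine genes Cxcl11 and Cxcl10 were already bright in Q111-Control. Cxcl11, which the RefSeq table classes as a transcribed pseudogene in this strain, had 8.53 and 9.51 (1.97-fold, 7.00 in Q7-Control), and Cxcl10 had 10.60 and 11.21 (1.53-fold, 6.93 in Q7-Control). They are neighbouring genes on chromosome 5. Nlrc5, the transactivator of MHC class I genes, had 6.70 and 7.29 (1.51-fold). The stress kinase gene Mapk11 had 9.34 and 10.24 (1.86-fold, 11.07 in Q7-Control) and Tbkbp1, which binds the kinase TBK1, 6.86 and 7.70 (1.79-fold). The acute-phase serpin gene Serpina3n had 10.18 and 10.85 (1.6-fold, 8.19 in Q7-Control). Vnn1, a pantetheinase, had 6.38 and 7.04 (1.58-fold), and Ly6c2, a surface antigen gene with a near-identical neighbour, 6.58 and 7.31 (1.65-fold). In this group Q7-Control had the lowest signal of the 3 arrays for Tnfsf11, Cxcl11, Cxcl10, Nlrc5, Serpina3n, Vnn1 and Ly6c2.

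Most interferon-stimulated genes differed by less than 0.32. Of 29 well-measured members 21 were higher with ASOs, 5 lower and 3 equal, against 40.8%, 23.4% and 35.8% of all well-measured genes. Past 0.32, 2 were higher and 0 lower (background 2.43% and 0.577%), and the median was 0.15, against 0.00. Tap1, which carries peptides to MHC class I, had 8.75 and 9.20 (1.37-fold), and the antiviral gene Oasl1 7.64 and 7.96 (0.32, just short of that limit). Ifit1, at 11.53 and 11.65, and Ccl5, at 13.15 and 13.34, were bright and moved by 0.13 and 0.19. For MHC class I and antigen processing 14 of 17 were higher, 3 passed 0.32 (H2-T23, Nlrc5 and Tap1), and the median was 0.19, or 0.15 without H2-T23, which is on the study's list. Among 23 chemokine and cytokine genes 5 passed 0.32 upwards, Tnfsf11, Cxcl11, Cxcl10, Ccl17 and Ccl9, and 1 downwards, Cxcl14 (7.18 and 6.86), against 2.43% and 0.577% of all well-measured genes. Tnfsf11, and H2-T23 among the MHC genes, counted as well measured only through the ASOs array. The 16 macrophage markers, with a median of 5.79 under the control oligo and 5.66 with ASOs, had differences from -0.37 to 0.24, and 0 of them passed 1.5-fold. Over all genes 0.455% rose and 0.153% fell by as much.

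Matrix, surface and secreted genes made a group of 8. Mmp24, a membrane-type metalloproteinase of neurons, had 6.81 in Q111-Control, 8.03 in Q111-ASOs and 7.73 in Q7-Control (2.32-fold). Hgf, the hepatocyte growth factor, had 6.43, 7.38 and 6.46 (1.93-fold), a rise seen from nearly equal control arrays. Sgcb, a sarcoglycan of the dystrophin complex, had 9.55, 10.30 and 10.20 (1.68-fold), and the vasodilator peptide gene Adm 6.95, 7.63 and 7.33 (1.6-fold). In these 4 genes Q111-ASOs was the highest of the 3 arrays. Prg4, the joint lubricant proteoglycan, had 6.21, 6.86 and 5.11 (1.57-fold), and the lysosomal glycoprotein gene Gpnmb 8.07, 8.72 and 5.72 (1.57-fold). The collagen-binding dermatopontin gene Dpt had 9.22, 9.86 and 6.37 (1.55-fold) and Scel, sciellin, 6.75, 7.34 and 4.27 (1.5-fold). These last 4 were lowest in Q7-Control. Of 40 well-measured collagens, laminins and matrix glycoproteins 30 were higher with ASOs, 8 lower and 2 equal, with a median of 0.11, and 4 passed 0.32 upwards and 0 downwards. Over all well-measured genes 40.8% were higher, 23.4% lower and 35.8% equal, and 2.43% and 0.577% passed 0.32. The 4 were the proteoglycan gene Dcn (10.27 and 10.79, 1.43-fold), Lama4 (9.36 and 9.81, 1.36-fold), Col18a1 (8.17 and 8.59, 1.34-fold) and Tnc (9.58 and 9.91, a difference of 0.33). Dcn is also among the fibroblast and mural markers given above, and the part of such cells in these differences was not tested.

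The remaining 6 named rises were of genes with other roles. Klhl8, an E3 ligase adaptor, had 6.73 in Q111-Control and 7.42 in Q111-ASOs (1.62-fold), and the mitochondrial membrane gene Letmd1 9.25 and 9.93 (1.61-fold). The mitochondrial ribosome gene Mrpl27 had 6.32 and 6.96 (1.56-fold). Rps13, a cytosolic ribosomal protein, had 8.35 and 8.99 (1.56-fold), but ribosomal protein genes have many processed copies whose transcripts the probes may not separate. It was the only member past 0.32 of 38 well-measured ribosomal protein genes, whose median was 0.00. Among all well-measured genes 2.43% rose and 0.577% fell by as much. The ETS factor gene Etv5 had 6.59 and 7.20 (1.52-fold), with a dimmer row at 5.74 and 5.69. The zinc-finger gene Zfp418 had 6.76 and 7.35 (1.51-fold).

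**Figure D2:**
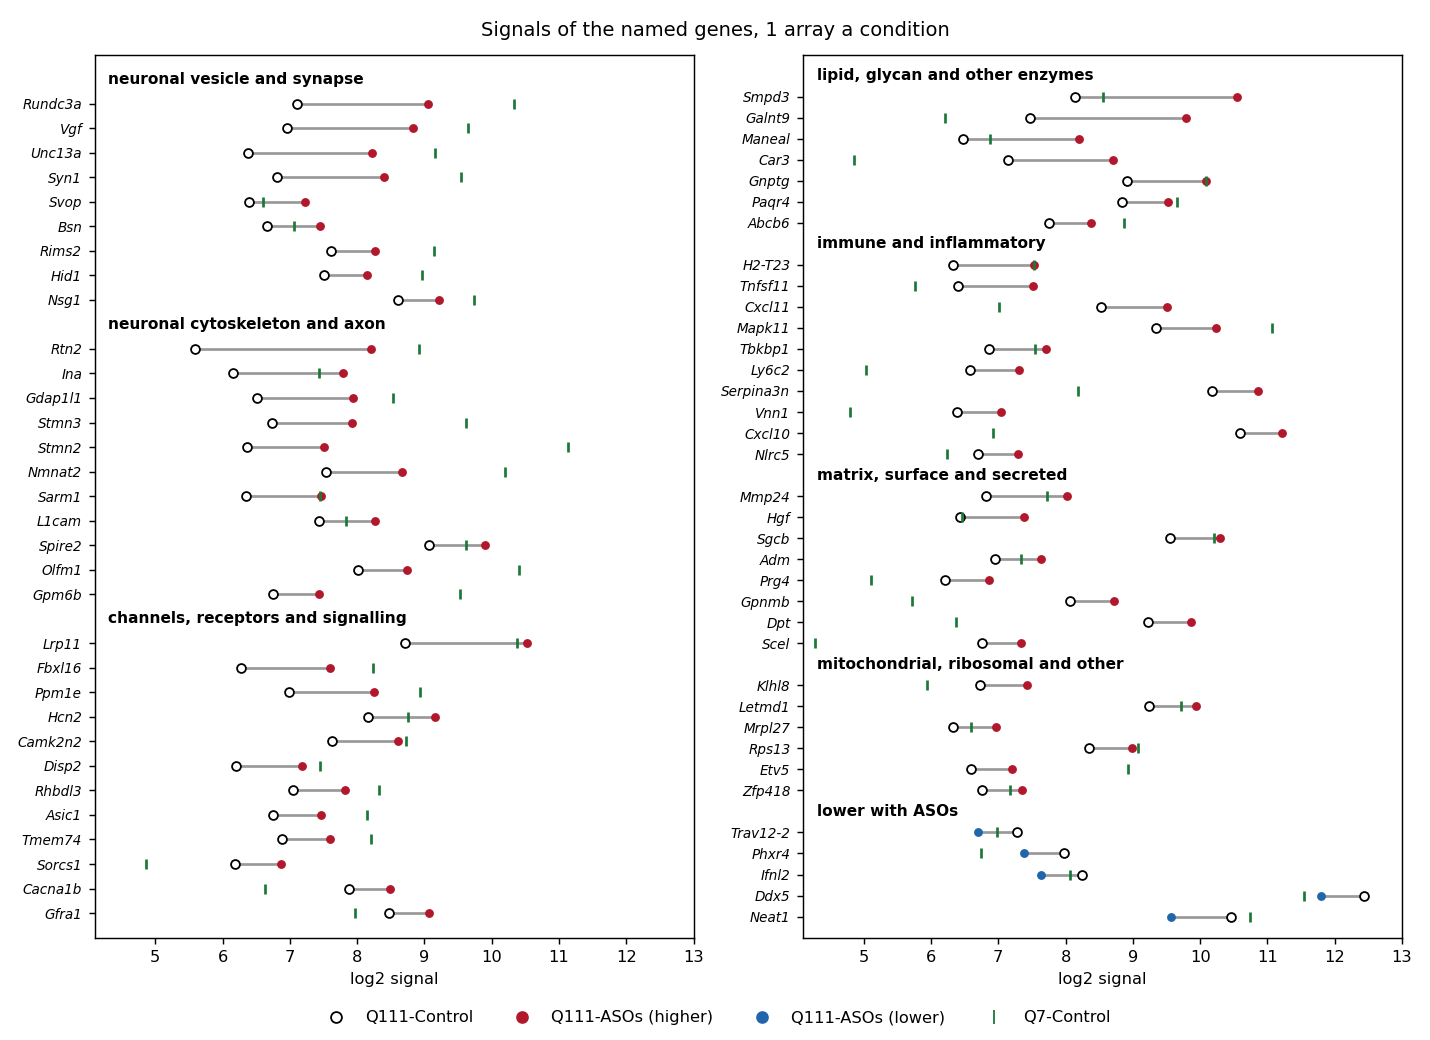
Log2 signals of the 68 named genes, grouped by known role, with 1 array a condition. Open circles are Q111-Control, filled circles Q111-ASOs (red where higher, blue where lower) and green ticks Q7-Control. Rtn2 spans 5.59 to 8.21 and Neat1 falls from 10.46 to 9.56, and Galnt9, Car3, Dpt and Gpnmb have their Q7-Control tick to the left of both circles.

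Only 5 named genes fell, and the brightest act in nuclear RNA. Neat1, the long noncoding RNA on which paraspeckles form, had 10.46 in Q111-Control, 9.56 in Q111-ASOs and 10.74 in Q7-Control, 1.87-fold lower with ASOs. Ddx5, an RNA helicase that acts in transcription and splicing, had 12.43, 11.80 and 11.55, 1.54-fold lower. Ddx5 was the only gene among the brightest 2218 to fall by over 0.32, and Neat1, with a mean signal of 10.01, was among the next 2218, of which 6 fell by as much. The other 3 were dimmer, namely Ifnl2, a type III interferon gene (8.24, 7.63 and 8.06, 1.52-fold lower), Phxr4 (7.97, 7.38 and 6.74, 1.51-fold lower) and Trav12-2, a T cell receptor segment (7.28, 6.69 and 6.99, 1.5-fold lower). Trav12-2 has 6 rows, and the other 5 moved by -0.16 to -0.03. The promoter of Ifnl2 held a match to the RE-1 element with 5 mismatches, the only one among the 3 of the 5 genes with a promoter in the table.

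More general splicing factors were lower than higher with ASOs. Of 47 genes, all well measured, 27 were lower, 4 higher and 16 equal, against 23.4%, 40.8% and 35.8% among the 11090 well-measured genes, with a median of -0.01 and a mean of -0.06. Past 0.32, 2 fell and 0 rose, against 0.577% and 2.43% of all well-measured genes. The 2 were Ddx5 and U2af1, the small subunit that reads the 3′ splice site (9.67 and 9.34, 1.26-fold lower). Luc7l2, a U1-associated factor, had 10.25 and 9.96 and Luc7l3 9.52 and 9.31, both within 0.32. Ccnl2, a cyclin of splicing speckles, had 9.79 and 9.46 (1.26-fold lower). By contrast, the core genes Sf3b1 (11.76) and Hnrnpu (12.14) were equal on both arrays. Of the 18 well-measured nuclear long noncoding RNA and paraspeckle genes only Neat1 passed 0.32. Malat1, its abundant neighbour in the genome, had 13.17 and 13.05, and the paraspeckle proteins Nono, Sfpq and Pspc1 had differences of 0.18, -0.05 and -0.02. Neural splicing and RNA-binding regulators had 0 of 15 genes past 0.32, with a median of 0.01. Beside the 2.43% and 0.577% of all well-measured genes, a count of 0 or 1 in lists of this size is near the background.

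Between 0.32 and 0.58 (1.5-fold) on the log2 scale, the well-measured genes of the named type numbered 189 higher and 29 lower. In this range, as past it, 1 array a condition cannot separate a response from the variation of a culture or an array. Just below the limit of the named genes stood Rragd, a Rag GTPase that signals amino acids (7.22 and 7.80, a difference of 0.58), and Gnao1, the neuronal G protein Go (7.79 and 8.37, 0.58). Further neuronal genes in this band were the chromatin remodeller gene Chd5 (7.22 and 7.79, 0.57), the synaptic Rab regulator gene Madd (9.04 and 9.61, 0.57), the amyloid precursor-like gene Aplp1 (8.13 and 8.60, 0.47) and the JNK scaffold gene Mapk8ip1 (8.90 and 9.37, 0.47). Scamp5, a synaptic vesicle membrane protein, had 9.29 and 9.63 (0.35), and Map1b 8.89 and 9.27 (0.38). Secreted and signalling genes were there too. Sod3, extracellular superoxide dismutase, had 9.49 and 10.06 (0.57), Igfbp4 8.94 and 9.47 (0.54), Dusp6, a phosphatase induced by ERK, 8.24 and 8.74 (0.50), and the necroptosis effector gene Mlkl 9.39 and 9.89 (0.50). The LIM protein gene Crip2, which holds a close RE-1 match, had 10.62 and 11.12 (0.50). On the lower side Metap1d had 8.12 and 7.66 (-0.47), the histone demethylase gene Kdm4c 9.28 and 8.84 (-0.44), the replication factor gene Rfc2 9.14 and 8.75 (-0.39) and Gchfr 9.70 and 9.35 (-0.35).

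Lists that hold none of the study's own genes and had 4 or more well-measured genes past 0.32 upwards were of REST targets, axon guidance, glycans, chemokines and matrix. All lists were made with earlier results of these data known, so their counts are a description and not independent evidence. The list of neuronal cytoskeleton genes also had 4 of 21, but Ina, Stmn2 and Stmn3 are on the study's list, which leaves Map1b. Among 86 neuronal genes listed as REST targets outside the study's own list, 77 had a value and 22 were well measured. Of the 22, 14 were higher with ASOs, 1 lower and 7 equal, with a median of 0.10. Past 0.32, 7 rose and 0 fell (background 2.43% and 0.577%), namely Hcn2, Disp2, L1cam, Bsn, Olfm1, Cacna1b and Mapk8ip1. Of these, Disp2 (6.20 in Q111-Control) counted as well measured only through the ASOs array, and the dimmer row of Bsn did not differ. For the 55 others the signal was below the median, and 2 of them, Tubb3 and Ptprn, rose by over 1.5-fold. Bdnf had 6.98 on each of the 3 arrays. By qRT-PCR the paper found Bdnf lower in STHdhQ111/Q111 than in STHdhQ7/Q7 and raised by the ASOs, less so than Stmn2 and Syn1. Exactly equal deposited values on both Q111 arrays were common, at 35.8% of well-measured genes. Axon guidance genes had 5 of 44 past 0.32 upwards and 0 downwards (background 2.43% and 0.577%), with a median of 0.05, led by the secreted ligand gene Slit3 (9.65 and 10.09, 1.35-fold), Ntn4 (6.54 and 6.96, 1.34-fold) and the plexin gene Plxna2 (7.62 and 8.01, 1.31-fold). Voltage-gated channels had 2 of 16, Hcn2 and Cacna1b, and ligand-gated receptors 0 of 6, with a median of -0.06. Progenitor factors had 1 of 18, Sox2 (6.96 and 7.30, with 11.34 in Q7-Control). Striatal markers had 0 of 6, among them the enkephalin gene Penk at 7.96 and 8.22.

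Lists of stress and housekeeping genes had from 0 to 2 genes past 0.32. With 2.43% of all well-measured genes past it upwards and 0.577% downwards, a count of 0 or 1 in a list of this size is near the background and is no result about the list. The p53 list had 0 of 27, with 17 higher, 1 lower and 9 equal, against 40.8%, 23.4% and 35.8% over all well-measured genes, and its members Cdkn1a, the cell cycle inhibitor p21 (11.66 and 11.84), and Ccng1 (12.18 and 12.36) had differences of 0.18 each. The unfolded protein response had 0 of 37 (median 0.02), cytosolic chaperones 0 of 29, NRF2 targets 0 of 28, TGF-beta and BMP genes 0 of 42, Wnt genes 0 of 42, Notch genes 0 of 22 and contractile genes 0 of 26. Cell cycle genes had 1 of 61, the cyclin gene Ccnd2 (8.20 and 8.55), and mitochondrial genes 1 of 48, the coactivator gene Ppargc1a (7.64 and 8.07). Immediate early genes had 2 of 33, Dusp6 and Klf2 (7.70 and 8.15), hypoxia and glycolysis genes 1 of 26, Adm, and histones 1 of 12. Housekeeping genes had 1 of 16, the transferrin receptor gene Tfrc (9.50 and 9.91, a difference of 0.42), while Gapdh was equal on all arrays at 13.04. Of all 49 lists, 17 had no well-measured gene past 0.32, 19 had at least 1 gene past 1.5-fold upwards and 2 had at least 1 past it downwards. Genes can be in several lists.

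**Figure D3:**
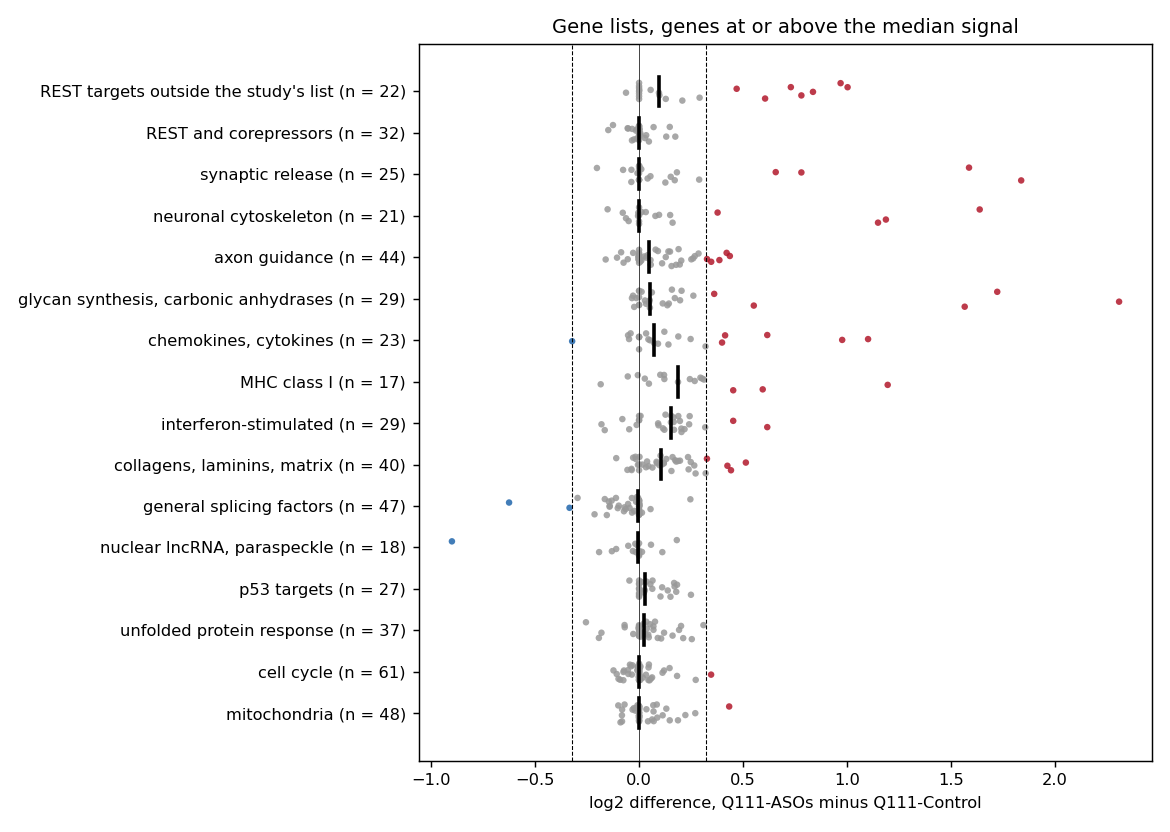
Log2 differences of Q111-ASOs minus Q111-Control for the well-measured members of 16 gene lists, 1 point a gene, with red and blue for genes past 0.32 (dashed lines) and a black bar at each list's median. The REST target list leaves out the genes the study listed, and 7 of its 22 members are red, while general splicing factors have 2 blue points and none in red.

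The signal level bore on which differences could be read. With genes in 10 bins of equal size by mean signal, in the lowest bin 60.1% were equal on both Q111 arrays, and in the highest bin 28.5%. Past 1.5-fold, bin 6 (mean signals from 6.52 to 7.56) held the most genes, with 34 higher and 4 lower, and bin 10 (10.35 to 13.86) held 2 higher and 1 lower. Cxcl10 and Serpina3n were the 2 and Ddx5 the 1. The interval from the 5th to the 95th percentile was -0.14 to 0.23 in bin 1, -0.22 to 0.09 in bin 4, -0.19 to 0.31 in bin 6 and -0.09 to 0.16 in bin 10. It reached further down than up in bins 2 to 5, and further up than down in bin 1 and in bins 6 to 10. A 1.5-fold rise therefore stood further from the bulk of genes at a signal of 10 than at 7.

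**Figure D4:**
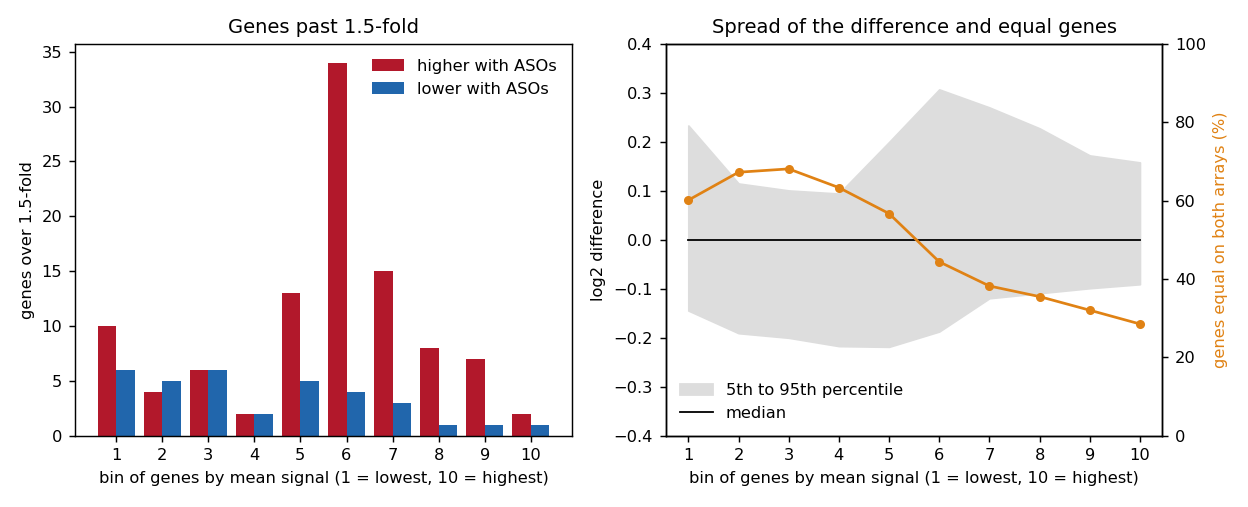
Left, the number of genes past 1.5-fold in each of 10 bins of genes by mean signal of the Q111 arrays, red for higher and blue for lower with ASOs. Right, the 5th to 95th percentile (grey) and median (black) of the log2 difference, and in orange the share of genes equal on both arrays, which goes from 60.1% in the lowest bin to 28.5% in the highest.

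The excess of rises was found for named protein-coding genes and not for every class of row. Of 10322 well-measured named protein-coding genes, 248 rose by over 0.32 (2.40%) and 27 fell (0.262%). Long noncoding RNAs had 6 higher and 5 lower of 257, and pseudogenes 8 and 5 of 103. Small RNAs went the other way, with 3 higher and 18 lower of 165 (10.9% lower). Past 1.5-fold, Mir505 (9.14 and 8.49), Mir345 (7.27 and 6.64) and Snord88c (7.31 and 6.71) fell and Mir1949 (7.64 and 8.24) rose, each named by its gene, with no separate value for a mature RNA. Rows with no listed gene also leaned downwards, with 355 higher (7.60%) and 782 lower (16.7%) of 4672 past 0.32. What those rows measure was not analysed here, and whether the same shift reaches the genes was not tested.

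**Figure D5:**
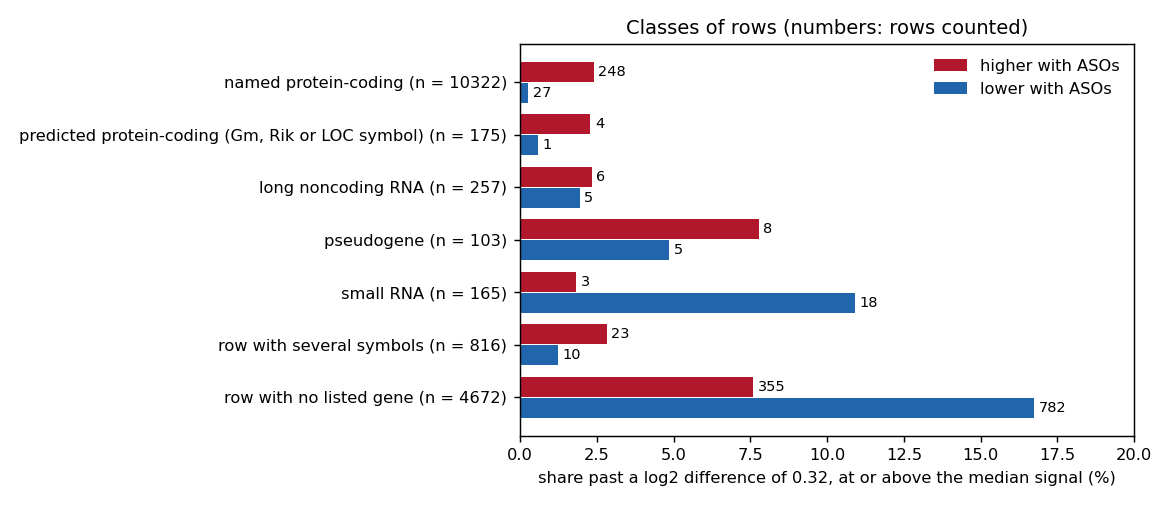
Share of well-measured rows in each class that passed 0.32 higher (red) or lower (blue) with ASOs, with the number of rows beside each bar. Named protein-coding genes have 248 higher and 27 lower, small RNAs 3 and 18, and rows with no listed gene 355 and 782.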

How the data were processed

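RNA of 3 cultures was measured on 1 array each, and Q111-ASOs was compared with Q111-Control. The authors made the deposited log2 values, 1 for each transcript cluster, in Partek, per the methods and the submitters' processing notes. For its version and its correction, normalization and summary steps, the settings were not given in the sources used here, and the log2 scale was read from the values. Rows were named from the platform annotation, with symbols updated by gene ID through RefSeq (a match for 23328 of the 23521 single-symbol rows). No name was given to the 1820 rows that list several symbols or the 16004 that list none. Where a gene had more rows, as 1082 did, the brightest by the mean of the 3 arrays stood for it. Precision is limited by having 1 array a condition, and p-values were not calculated.

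Named genes were those past 1.5-fold at or above the median signal (at most 80, without olfactory and similar receptor families, small RNAs or predicted genes), up to 4 genes of each of 49 lists with the largest differences at such signals, Rest and the genes the study listed. Other genes named between the log2 limit of 0.32 and 1.5-fold, in the lists and in the closing section were chosen after their values were seen. Members and lists were chosen with earlier results of these data known. Alternatives were centred arrays, quantile normalization, the mean of a gene's rows, values relative to Gapdh, minimum signals, other folds, all rows, and at most 4 mismatches for the RE-1 element. Calculations were tested on simulated data. Python 3.11.15 was used with pandas 2.3.3, numpy 2.4.6 and, for the plots, matplotlib 3.10.9.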

Additional observations from a re-analysis of the deposited data

Results flagged for a closer look

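Rows with no listed gene lie outside the comparison of genes, and 2 of them had the largest rises of such rows at or above the median signal. Transcript cluster 17323079 had a log2 signal of 6.42 in Q111-Control, 8.40 in Q111-ASOs and 6.85 in Q7-Control, a difference of 1.98 with ASOs. Transcript cluster 17252406 had 6.90, 8.30 and 7.21, a difference of 1.40. Both were higher with ASOs than on either control array, by more than most named genes. The largest falls of such rows were those of 17203473 (8.30 in Q111-Control, 6.75 in Q111-ASOs and 7.54 in Q7-Control, a difference of -1.55) and 17550428 (9.84, 8.45 and 9.78, a difference of -1.39). At or above the median signal 20 rows with no listed gene were over 2-fold higher and 27 over 2-fold lower.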

How the results depend on the processing

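A log2 value that shifted by under 0.14 (the SD over well-measured genes) and a count that kept within a factor of 1.5 were called stable. No paired analysis was possible because the arrays carry no replicate numbers. Over 2-fold, 23 genes rose and 6 fell, over 1.5-fold 101 and 34, and at or above the median signal 66 and 10 over 1.5-fold. Values relative to Gapdh were the same as deposited, since Gapdh was equal on all arrays. Centring, quantile normalization and the mean of a gene's rows kept each of these counts within 1.5 times. Leaving out equal genes, run on the first 4 counts, left them the same, which was fixed in advance because an equal gene passes no fold limit. A minimum at the median signal left 66 and 10 over 1.5-fold and 0 lower over 2-fold. A minimum at the 75th percentile left 3 higher and 0 lower over 2-fold, and 12 and 2 over 1.5-fold. All rows of the table gave 182 and 160 over 2-fold, and 701 and 804 over 1.5-fold, so the direction of the excess past 1.5-fold turned once unnamed rows were counted. With the log2 limit of 0.32 the counts at or above the median signal were 270 and 64. Of the 63 named rises, 61 stayed past 1.5-fold after centring, 62 after quantile normalization and 59 with the mean of rows, and of the 5 falls 5, 4 and 4. The mean of rows moved Lrp11 to 1.01, Car3 to 1.33, Svop to 0.32, Bsn to 0.39, Etv5 to 0.28, Gfra1 to 0.34 and Trav12-2 to -0.16. These are the named genes with more than 1 row, 6 rises and 1 fall, and a gene with 1 row cannot move there. Of 276 alternative values of single genes 269 stayed, but most of this was fixed in advance. Gapdh left every value as deposited, and centring shifts all genes by the same small amount. Of 586 alternative list medians and means 571 stayed, and centring or Gapdh could hardly move these either. With at most 4 mismatches the share of named rises with an RE-1 match was 4.44% instead of 13.3%. Genes below the median signal limit what can be read, as 63.1% of them were equal on both arrays.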

Other observations

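Several neuronal and secreted genes below the median signal also differed by over 1.5-fold, and they were chosen here after their values were seen. Tubb3, the neuronal tubulin, had a log2 signal of 5.95 in Q111-Control, 6.89 in Q111-ASOs and 7.79 in Q7-Control, a difference of 0.94 with ASOs. Nrip3 had 6.09, 6.94 and 7.39 (0.85) and Ptprn, a secretory granule phosphatase-like protein, 6.12, 6.73 and 8.79 (0.60). Phyhipl had 5.58, 6.32 and 5.41 (0.74), the lipocalin gene Apod 6.10, 6.80 and 5.50 (0.70) and the matrix gene Postn 6.17, 6.84 and 5.24 (0.67). The cytokine gene Il6 had 4.81, 5.45 and 5.45 (0.64). Below the median signal 35 genes were over 1.5-fold higher and 24 lower, and 21 and 7 without predicted genes, small RNAs and receptor families.

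At these signals the falls included Tbx10, a T-box factor gene (6.86 in Q111-Control and 6.13 in Q111-ASOs, a difference of -0.73), and Krt12, a corneal keratin gene (6.24 and 5.63, -0.62). All 6 genes over 2-fold lower with ASOs had signals in this range.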
